A study of Mus musculus with 18 samples.

Results

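The genes described here carry the signal from the death receptor Fas to apoptosis or to necroptosis. They were chosen by symbol for their place in the pathway, with earlier results of these data known, as Fas, Fadd, Casp8, Cflar, Bid, Ripk1, Ripk3 and Mlkl, and all 8 were present among the 15035 genes measured in kidney cortex. Binding of Fas ligand to Fas recruits the adaptor Fadd, which brings procaspase-8 (Casp8) and its catalytically inactive relative cFLIP (Cflar) together. Active caspase-8 cuts executioner caspases and Bid, a BH3-only protein whose cut form acts on mitochondria, and it also cuts the kinases Ripk1 and Ripk3. When caspase-8 is held back, Ripk1 and Ripk3 bind each other through their RHIM motifs. Ripk3 then phosphorylates the pseudokinase Mlkl, which breaks the plasma membrane in the inflammatory form of death called necroptosis. In the kidney, necroptosis is known mainly from injured tubule cells, and Fas is known for removing self-reactive lymphocytes. All of these steps are controlled at the protein level as well, by cleavage, phosphorylation and assembly, which transcript levels do not show.

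The study, whose title names combination therapy for lupus nephritis, sequenced RNA from kidney cortices of 6 groups of 3 mice. The healthy group was labelled Mrl/Mpj wild type and received vehicle. The other 15 mice were labelled Mrl/lpr and received vehicle, MMF (mycophenolate mofetil, an inhibitor of inosine monophosphate dehydrogenase), FK506 (tacrolimus, a calcineurin inhibitor), prednisone (a glucocorticoid) or Multi-target treatment. The labels give no doses, durations, ages or sexes, do not say what the Multi-target treatment was made of, and name the healthy mice by another scheme than the rest. Every Mrl/lpr group, treated or not, carries the lpr mutation that no healthy mouse carries, so in each contrast with healthy mice the genotype, the disease and any difference in preparation cannot be told apart.

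Libraries held 28939845 to 41066953 reads over the measured genes, as recovered from the deposited values. On the leading principal component (41.1% of the variance) vehicle mouse 36 lay farthest from the healthy mice, at 79.3 against -53.4 to -43.9. Vehicle mouse 17 stood apart in the summed adipocyte markers and FK506 mouse 12 in the adrenal cortex markers, with 13.88 and 13.64 on the log2 scale against at most 8.45 and 9.03 in any other mouse. Vehicle mouse 17 also stood apart in the summed urothelium markers, at 10.33 against at most 7.71 in any other mouse. Markers of proximal tubule were high in all mice, at 18.82 to 19.02 in healthy mice and 16.96 (vehicle mouse 36) to 18.82 in Mrl/lpr mice, as the label of the tissue requires. Of the B cell markers Ms4a1 and of the macrophage markers Adgre1 had no row. All levels below are deposited log2 values, in which a step of 1 is a doubling. Levels were not scaled to gene length, so they are compared between groups and never between genes. A difference was called where its adjusted p was under 0.05 over all genes.

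Fas lies on chromosome 19 from 34290666 to 34327772 on the forward strand of GRCm38. The lpr mutation is an early transposon in the second intron, which spans 34307279 to 34315178 (7900 bases) in the annotated transcript of 9 exons, and it is known to end most transcripts early. The deposited Fas value was an average over rows: in 18 of 18 libraries the square of its linear value was a whole number of reads, the pattern left by averaging the log2 values of 2 rows, against 2% by chance. The Fas values therefore do not separate reads before the insertion from reads after it, and they check no genotype. Ripk3 (chromosome 14, 55784995 to 55788865, reverse strand) showed the same pattern for 3 rows, with whole cubes in 16 of the 16 libraries deep enough in digits to tell. Fadd, Bid, Ripk1 and Mlkl were whole numbers of reads in 18 of 18 libraries, while the number of rows behind Casp8 and Cflar could not be resolved. A value that averages several rows weighs a row with few reads as much as a row with many, and what the rows stand for is not given.

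Interferons act on target genes through STAT-bound GAS and ISRE elements, and the promoters of the 8 genes were searched on both strands for simple versions of both. The GAS-type pattern was TTCNNNGAA, and the ISRE-type pattern was GAAA, any 2 bases, then GAAA. RefSeq windows from 250 bases before to 50 bases after the start were available for 8 of 8 genes, in 9 windows (GRCm38.p6). The GAS-type pattern occurred in 8.3% and the ISRE-type pattern in 3.44% of all 32851 windows. Fas held 1 GAS-type match, from -93 to -85. The second Ripk1 window held 2, from -108 to -100 and from -11 to -3, and an ISRE-type match from -5 to 4 that overlaps the second. Cflar held an ISRE-type match from 6 to 15. No match lay in the windows of Fadd, Casp8, Bid, Ripk3 and Mlkl or in the first Ripk1 window, which says only that these letters are not there. The stretches around the Fas and Ripk1 matches and the 120 bases before the starts of Ripk3 and Mlkl are shown because these are the 4 genes that were higher in disease. GAS-type matches are in capitals, and all are written 5′ to 3′ on the strand of the gene.
Fas, chr19:34290546-34290594 (+): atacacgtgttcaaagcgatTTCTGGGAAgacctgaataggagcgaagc
Ripk1, chr13:34002746-34002873 (+): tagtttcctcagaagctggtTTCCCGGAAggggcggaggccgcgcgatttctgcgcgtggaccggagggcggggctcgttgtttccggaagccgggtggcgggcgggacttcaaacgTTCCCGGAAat
Ripk3, chr14:55788858-55788977 (-): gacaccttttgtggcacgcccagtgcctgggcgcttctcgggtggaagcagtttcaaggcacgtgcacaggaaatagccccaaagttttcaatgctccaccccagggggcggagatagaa
Mlkl, chr8:111338206-111338325 (-): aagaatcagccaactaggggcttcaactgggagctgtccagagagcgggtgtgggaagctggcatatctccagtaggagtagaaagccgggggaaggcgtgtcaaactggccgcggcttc

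In diseased kidneys (vehicle Mrl/lpr against healthy), Fas, the necroptosis kinase gene Ripk3 and its substrate Mlkl were severalfold higher, and Ripk1 slightly. Fas carries the lpr insertion in these vehicle mice and in no healthy mouse. No change was called in the main fit for the adaptor, the initiator caspase, its regulator or Bid. Of the 8 genes, 4 were called higher and 0 lower, where 22.4% of all genes were called in this contrast, 15.7% higher and 6.76% lower. Of all genes called 69.8% were higher, and 43.7% after quantile normalization. The groups did not overlap for 5 of the 8, against 52.4% of all genes.

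Fas stood at 6.63, 6.85 and 6.78 in healthy mice 1, 2 and 3, or 95.1 to 96.8 read equivalents. It stood at 8.09, 8.28 and 7.91 in vehicle mice 7, 17 and 36, or 215.8 to 257.7 read equivalents. Every vehicle mouse lay more than 1 log2 unit above every healthy mouse, and the difference was 1.34 ± 0.15 (SE, n = 3 per group), a 2.54-fold rise (limma, Benjamini-Hochberg adjusted p = 3.81e-05). It stayed between 1.06 and 1.43 and was called under each alternative that kept the gene. These values do not tell reads before the lpr insertion from reads after it, so they do not show a rise of intact Fas transcript.

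Ripk3 stood at 5.57, 5.83 and 5.52 in the healthy mice, or 40.3 to 47.0 read equivalents. In vehicle mice 7, 17 and 36 it stood at 6.85, 7.32 and 8.39, or 109.3 to 299.6 read equivalents. All vehicle mice were above all healthy mice, and mouse 36 was the highest. The difference was 1.88 ± 0.37, or 3.69-fold (limma, adjusted p = 0.00285), and 1.45 without vehicle mouse 36, still called.

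Mlkl (chromosome 8, 111311797 to 111338177, reverse strand) rose about as much. Healthy mice held 7.08, 6.99 and 7.03, or 105 to 130 reads, and vehicle mice 7, 17 and 36 held 8.32, 8.66 and 9.84, or 302 to 821 reads. The healthy mice lay within 0.1 of each other and the vehicle mice spread over more than 1 log2 unit, with mouse 36 highest. The difference was 1.91 ± 0.37, or 3.75-fold (limma, adjusted p = 0.00264), and it was called under each alternative that kept the gene, at 1.46 to 2.22.

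Ripk1 (chromosome 13, 34002363 to 34037147, forward strand), the kinase that sits at the branch between survival, apoptosis and necroptosis, held 10.86, 10.94 and 10.93 in healthy mice. It held 11.16, 11.16 and 11.28 in vehicle mice 7, 17 and 36, all above the healthy mice. The difference was 0.29 ± 0.07, a 1.22-fold rise (limma, adjusted p = 0.00841). This small rise depends on the scaling: it was 0.19 (adjusted p = 0.052) after quantile normalization and 0.10 (adjusted p = 0.274) after centring each library on its median. Quantile normalization moved the median difference of all genes from 0.09 to -0.07 in this contrast. Ripk1 overlaps Serpinb6a on the opposite strand, and the library kit named in the labels does not keep strand, so reads of the overlap cannot be told apart.

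The genes between receptor and kinases moved less. The adaptor Fadd was 0.24 lower (chromosome 7, 144577318 to 144582463, with the antisense gene Faddos over it), with an interval of -0.66 to 0.18 and an adjusted p of 0.404 in limma; with array weights it was called lower, at -0.37 (0.0497). Casp8 and Cflar, neighbours on chromosome 1 (58795374 to 58847503 and 58711508 to 58758884), differed by 0.09 (-0.21 to 0.39) and 0.15 (-0.10 to 0.41). The directions of Casp8 and Cflar are not settled, since centring on the median turned both, to -0.10 and -0.04. Bid (chromosome 6, 120891930 to 120916853, overlapped by Bcl2l13 on the other strand) held 11.35 to 11.51 in healthy and 11.55 to 11.72 in vehicle mice. Those ranges did not overlap, yet the difference of 0.22 was not called (limma, adjusted p = 0.345). A change of Casp8 or Cflar as large as that of Ripk3 lies outside these intervals.

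**Figure D1:**
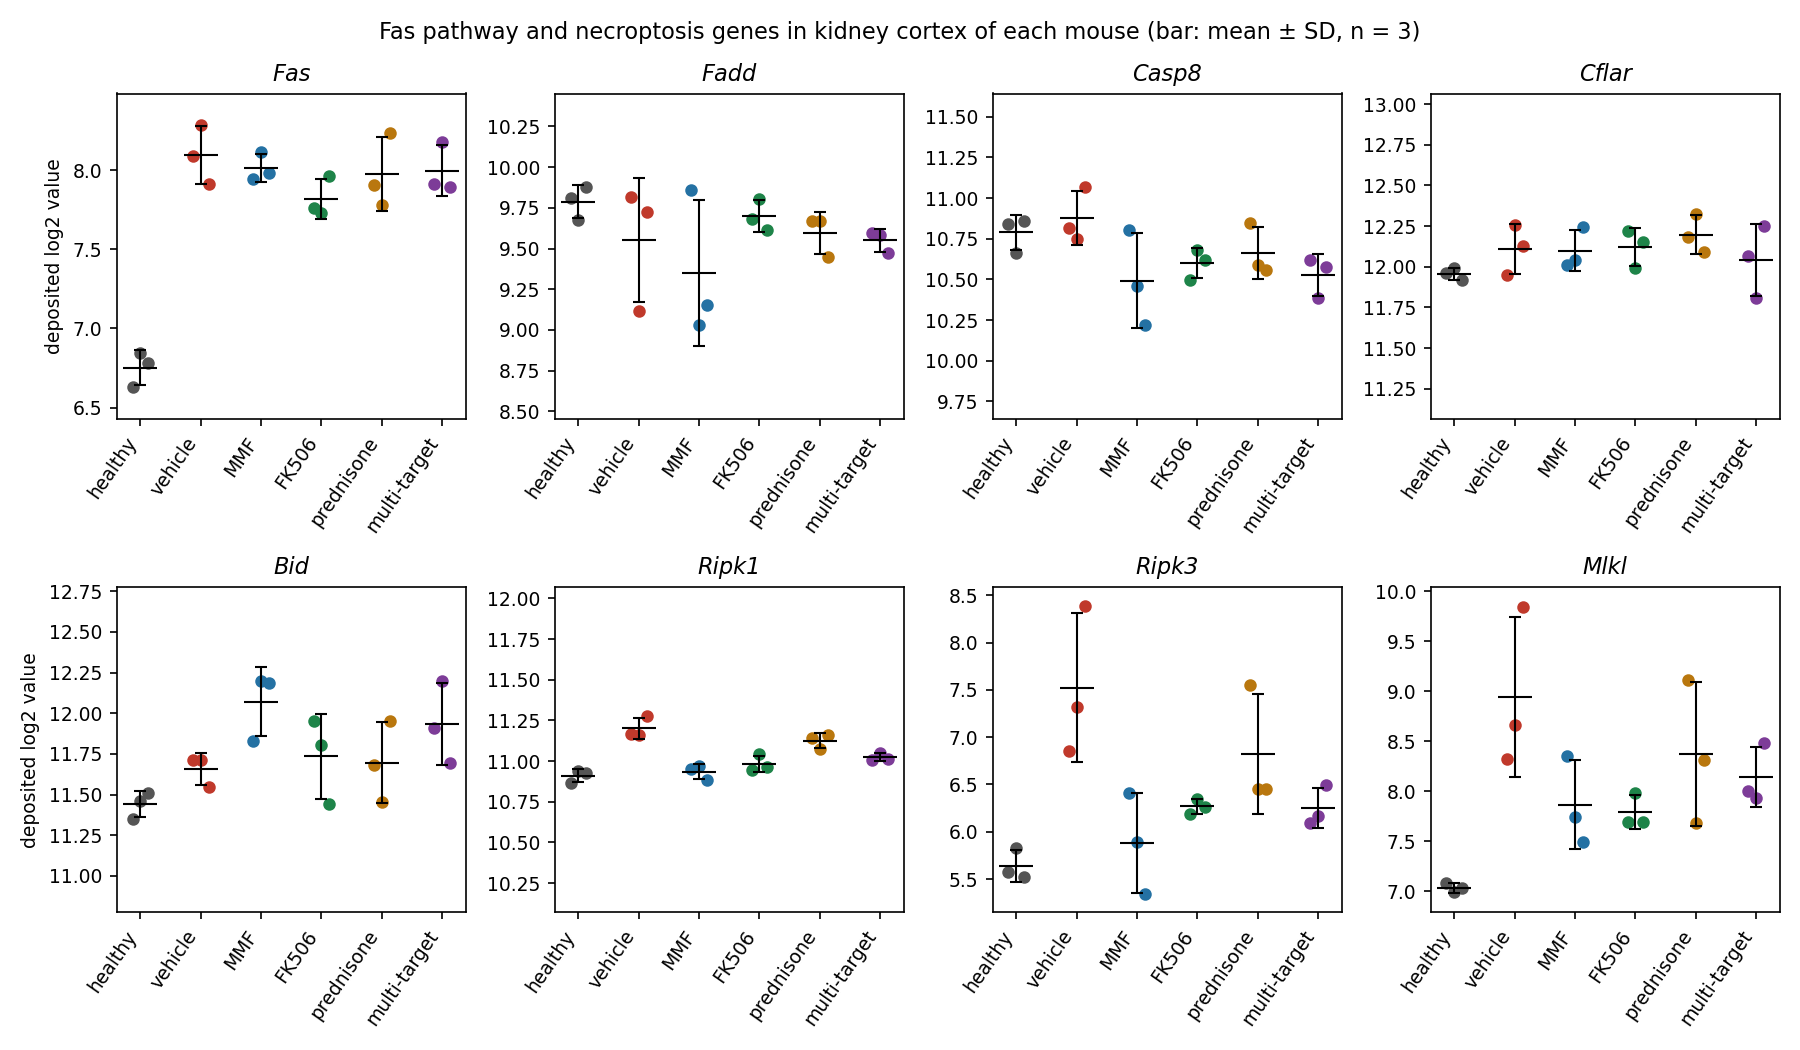
Deposited log2 value (vertical axis) of each of the 8 genes in each of the 18 mice, by group; points are mice and bars the mean ± SD (n = 3). Fas separates the 3 healthy mice from all 15 Mrl/lpr mice, whereas Ripk3 and Mlkl are highest in vehicle mouse 36 and prednisone mouse 23 and Ripk3 in MMF mouse 27 lies below the healthy mice.

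Disease also brought markers of white blood cells. The summed leukocyte markers (4 of 4 measured, none at 0) stood at 10.27 to 10.64 in healthy and 12.86 to 13.77 in vehicle mice on the log2 scale. The summed macrophage markers (5 of 6 measured) stood at 11.75 to 11.90 and 13.83 to 14.84, and the summed T cell markers (7 of 7 measured) at 10.83 to 11.03 and 11.57 to 12.56. A sum weighs the highest marker most, here Cd8a for T cells. The mean log2 value of the 7 T cell markers was 6.55 to 6.60 in healthy and 8.09 to 9.20 in vehicle mice. The mouse with the most leukocyte signal, vehicle mouse 36 at 13.77, also held the most Ripk3 and Mlkl, and it held the lowest proximal tubule sum of all, 16.96. Prednisone mouse 23 was second in leukocyte signal, at 13.61, and second in Ripk3 and Mlkl. The part of infiltrating cells in the Ripk3 and Mlkl results was not tested. In bulk tissue, more cells of a type and more RNA per cell cannot be told apart. MMF mouse 27 held Fas at 7.98, within the vehicle range, with a leukocyte sum of 10.88, the closest of all Mrl/lpr mice to healthy. Its neutrophil sum was 10.72, above the vehicle mice (9.68 to 10.39) and the healthy mice (8.28 to 8.52), and its B cell sum was 8.99 against 7.90 to 8.01 in healthy mice. Its macrophage sum was 11.94, just above the healthy range. Its T cell sum of 10.95 lay inside the healthy range, while its mean T cell marker value of 7.05 lay above it. The part of these cells in the Fas result was not tested.

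**Figure D2:**
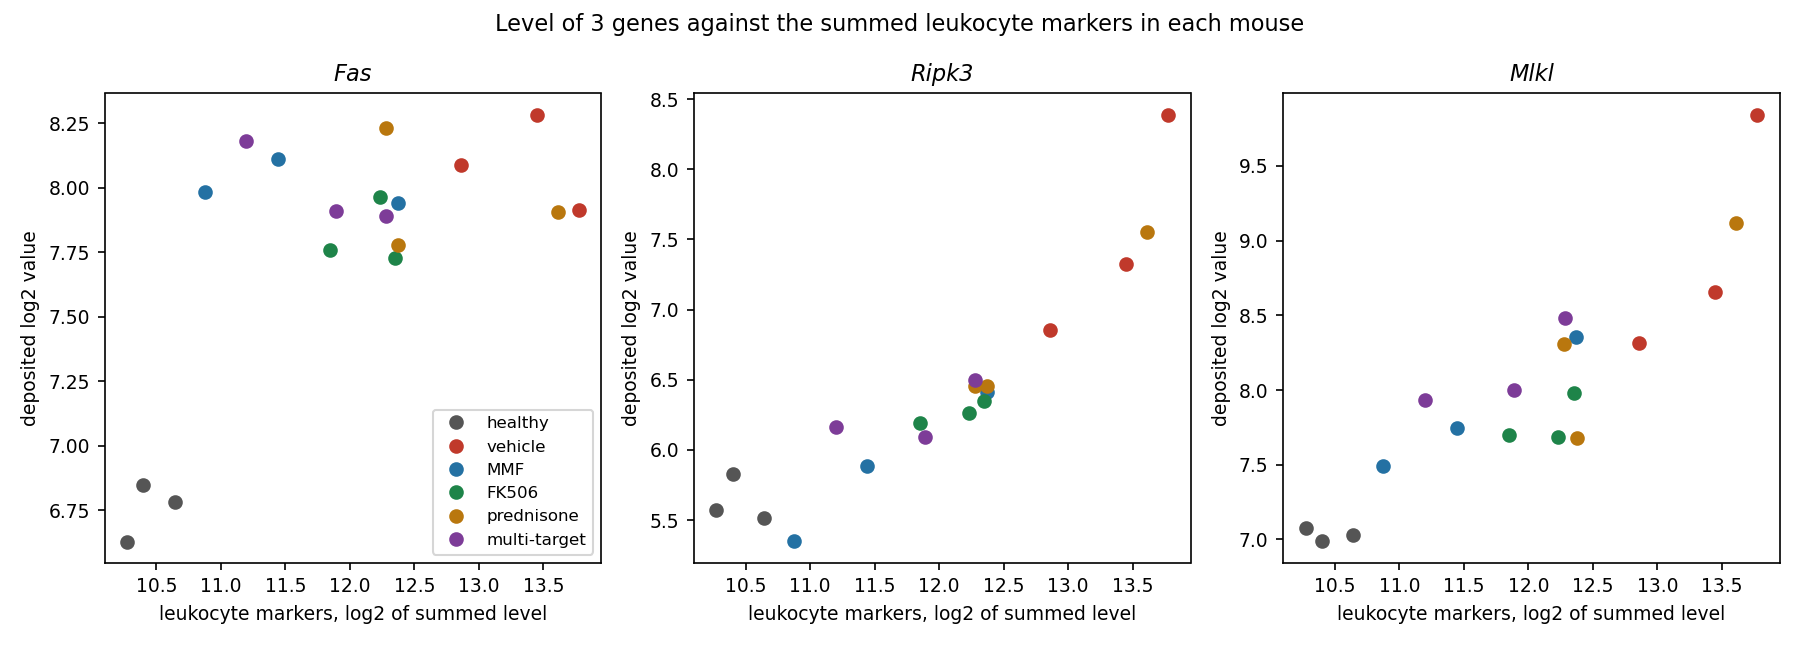
Deposited log2 value of Fas, Ripk3 and Mlkl (vertical axes) against the log2 of the summed level of 4 leukocyte markers (horizontal axes), 1 point per mouse coloured by group. Ripk3 and Mlkl points lie along a rising band that ends at vehicle mouse 36, while Fas lies at 7.73 to 8.28 in the Mrl/lpr mice over the whole range of leukocyte sums and at 6.63 to 6.85 in the healthy mice.

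The drugs were compared with vehicle to ask how treated Mrl/lpr kidneys differ from untreated ones. All 4 comparisons use the same 3 vehicle mice, so their values are given side by side and not as repeats of each other. Ripk3 was the only member called in any of them, lower on MMF, and Fas was not called for any drug. With MMF 1.58% of all genes were called (0.133% higher, 1.45% lower) and 1 of the 8 members. As single mice were left out, calls over all genes on MMF ran from 0 to 5538, which bears on every such refit given below. With FK506, prednisone and the Multi-target treatment 0% of all genes were called and 0 members, although 2987, 474 and 2341 genes had an unadjusted p under 0.05 in limma, members among them in 3, 0 and 4 cases.

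Ripk3 held 6.41, 5.89 and 5.35 in MMF mice 1, 14 and 27, or 27.3 to 64.7 read equivalents. All lay below the lowest vehicle mouse (6.85), and mouse 27 lay below every healthy mouse. The MMF libraries held 28939845 to 32293698 reads, fewer than any other library, and the part of depth was not tested. Ripk3 fell by 1.64 ± 0.37, to 0.321 of the vehicle level (limma, adjusted p = 0.0486). The call is fragile: the difference was -1.21 (adjusted p = 0.217) without vehicle mouse 36 and -1.37 (0.242) without MMF mouse 27. The adjusted p was also above the threshold without vehicle mouse 17 (0.0866) or MMF mouse 14 (0.162). In FK506 mice 3, 12 and 24 Ripk3 held 6.19, 6.35 and 6.27, a difference of -1.25 ± 0.37 that was not called (adjusted p = 0.171). In the Multi-target mice 6, 18 and 39 it held 6.10, 6.16 and 6.50, a difference of -1.27 ± 0.37 (adjusted p = 0.177). Both of these groups lay wholly below the vehicle mice. In prednisone mice 23, 29 and 35 it held 7.55, 6.46 and 6.45, so that mouse 23 lay inside the vehicle range and the difference was -0.70 ± 0.37 (adjusted p = 0.943). Without vehicle mouse 36 the differences were -0.82 (0.654) on FK506, -0.84 (0.793) on the Multi-target treatment and -0.27 (0.996) on prednisone, and without prednisone mouse 23 the last was -1.07 (0.482). The leukocyte sums of these groups were 10.88 to 12.37 with MMF, 11.85 to 12.35 with FK506, 11.20 to 12.28 with the Multi-target treatment and 12.28 to 13.61 with prednisone, and their part in the Ripk3 values was not tested.

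Mlkl was lower than in vehicle mice by estimate in every arm, and called in none. It held 8.35, 7.74 and 7.49 in MMF mice 1, 14 and 27, with mouse 1 inside the vehicle range. The difference was -1.07 (interval -1.87 to -0.28, adjusted p = 0.092 in limma), and -1.32 (adjusted p = 0.0224) without MMF mouse 1 and -1.39 (adjusted p = 0.0383) without vehicle mouse 7, but -0.62 (0.325) without vehicle mouse 36. FK506 mice 3, 12 and 24 held 7.70, 7.98 and 7.69, all below the vehicle mice, a difference of -1.15 (-1.95 to -0.36, adjusted p = 0.171). Multi-target mice 6, 18 and 39 held 8.001, 7.93 and 8.48, a difference of -0.80 (-1.59 to 0.00, adjusted p = 0.319). Prednisone mice 23, 29 and 35 held 9.12, 7.68 and 8.31, the widest spread among the treated groups, and differed from vehicle by -0.57 (-1.37 to 0.22, adjusted p = 0.943). Without vehicle mouse 36 the differences shrank to -0.70 (0.659) on FK506, -0.35 (0.999) on the Multi-target treatment and -0.12 (0.996) on prednisone. The prednisone value was also -0.23 (0.999) without prednisone mouse 29, and larger at -0.95 (0.482) without mouse 23 and -0.88 (0.562) without vehicle mouse 7.

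Ripk1 lay below all vehicle mice in every treated arm, again without a call in the limma fit, though on prednisone only by a near tie (mouse 35 at 11.1607, vehicle mouse 17 at 11.161). It held 10.95, 10.97 and 10.88 on MMF, 10.95, 11.04 and 10.96 on FK506, 11.14, 11.07 and 11.16 on prednisone, and 11.01, 11.05 and 11.01 on the Multi-target treatment. The differences were -0.27 (limma, adjusted p = 0.0535), -0.22 (0.171), -0.08 (0.943) and -0.18 (0.254) in that order. Without MMF mouse 1 or vehicle mouse 7 the first was called, at -0.27 (adjusted p = 0.0102) and -0.28 (0.0359), and voom on the recovered reads called it at -0.36 (0.0376) and array weights at -0.25 (0.0103). Over all alternatives the MMF difference ran from -0.36 to -0.15, and from -0.29 to -0.23 with single mice left out. The others ran from -0.30 to -0.14 on FK506, -0.12 to -0.04 on prednisone and -0.25 to -0.10 on the Multi-target treatment. Non-overlap with vehicle was seen for 3 of the 8 members on MMF, 4 on FK506, 1 on prednisone and 3 on the Multi-target treatment, where 17.7%, 22%, 6.71% and 17.1% of all genes showed it.

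Fas was not called against vehicle in any arm. It held 7.94, 8.11 and 7.98 in MMF mice 1, 14 and 27, and 7.76, 7.73 and 7.96 in FK506 mice 3, 12 and 24. It held 7.91, 7.78 and 8.23 in prednisone mice 23, 29 and 35, and 7.91, 8.18 and 7.89 in Multi-target mice 6, 18 and 39. All 4 arms overlapped the vehicle mice. The differences from vehicle were -0.08 on MMF (-0.39 to 0.23), -0.28 on FK506 (-0.59 to 0.03), -0.12 on prednisone (-0.43 to 0.19) and -0.10 on the Multi-target treatment (-0.41 to 0.21). The lowest bound of the 4 intervals was -0.59. The small values on MMF and the Multi-target treatment turned to 0.14 and 0.04 after quantile normalization, and on MMF also to 0.03 after median centring and 0.01 without vehicle mouse 17.

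Casp8 held 10.46, 10.80 and 10.22 in MMF mice 14, 1 and 27 and 10.38 to 10.85 in the other treated mice, against 10.75 to 11.07 in vehicle mice. Its differences were -0.39 on MMF (limma, adjusted p = 0.0983), -0.28 on FK506 (0.273), -0.21 on prednisone (0.943) and -0.35 on the Multi-target treatment (0.257). Without MMF mouse 1 the first was -0.54 and called (adjusted p = 0.00665), and without MMF mouse 27 it was -0.25 (0.376). Bid was the member with the highest estimate on MMF, at 11.83, 12.20 and 12.18 in mice 1, 14 and 27, all above the vehicle mice, a difference of 0.41 (adjusted p = 0.118), called without MMF mouse 1 at 0.53 (0.0258). On FK506, prednisone and the Multi-target treatment Bid differed by 0.08, 0.04 and 0.28, with adjusted p of 0.824, 0.983 and 0.41, and the first 2 signs turned when single mice were left out. Fadd and Cflar were called in no drug arm, and over all 8 members the intervals ran from -2.43 to 0.76 on MMF, -2.05 to 0.57 on FK506, -1.49 to 0.46 on prednisone and -2.06 to 0.62 on the Multi-target treatment.

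**Figure D3:**
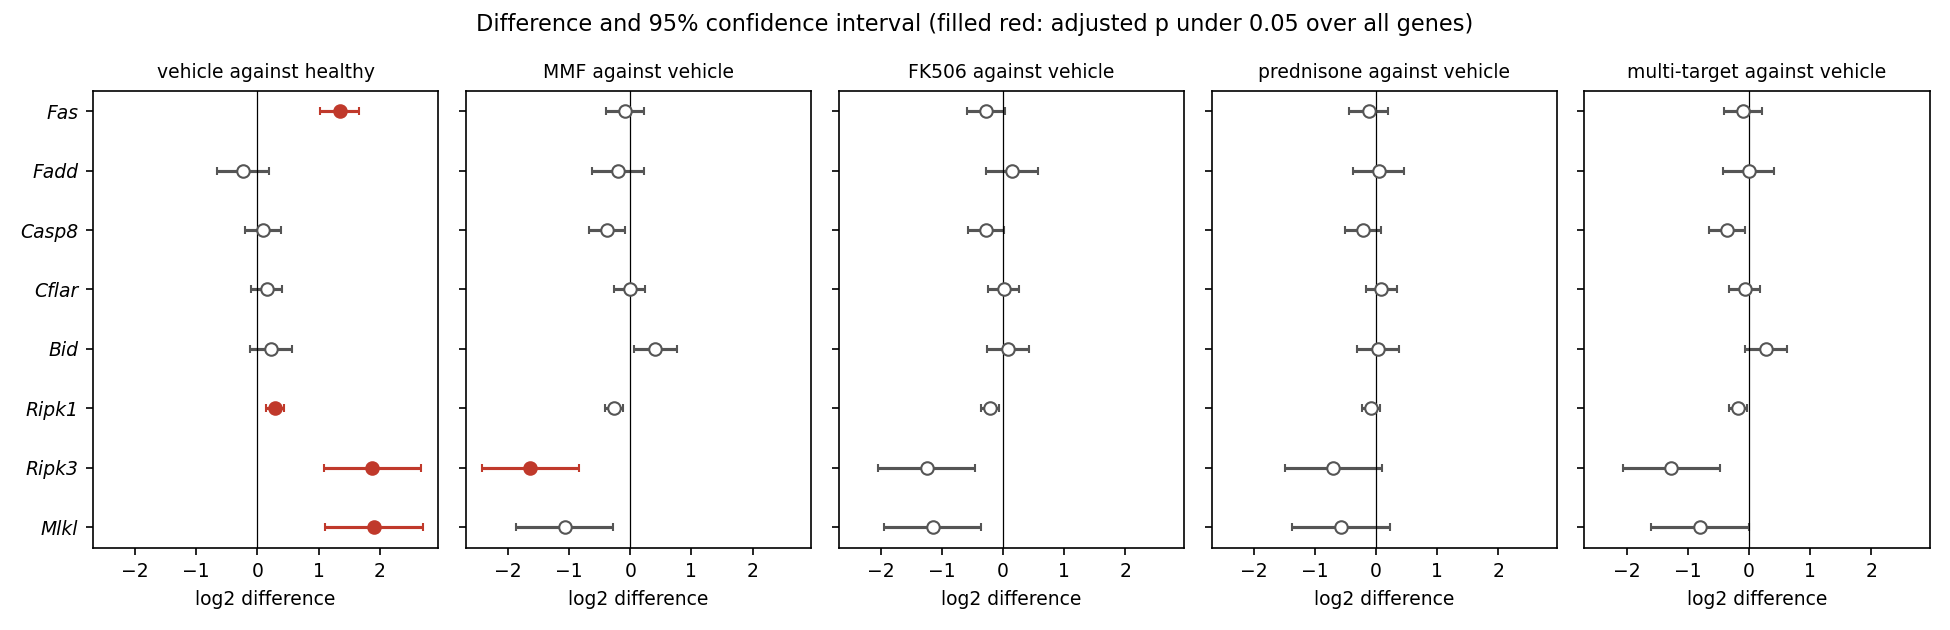
Log2 difference (horizontal axes) of each of the 8 genes with its 95% confidence interval, in disease against healthy and in each drug arm against vehicle (n = 3 per group); filled red marks an adjusted p under 0.05 over all genes. The disease panel shows 4 red points, at 0.29 to 1.91, and the drug panels show 1, Ripk3 on MMF at -1.64.

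With the 12 treated mice pooled, 0% of all genes and 0 of the 8 members were called against vehicle, while 3663 genes had an unadjusted p under 0.05 and the smallest adjusted p of any gene was 0.0872 in limma. Ripk3 differed by -1.22 (adjusted p = 0.0872), Mlkl by -0.90 (0.106), Ripk1 by -0.18 (0.0905) and Casp8 by -0.31 (0.121). Ripk1 was lower in 12 of 12 treated mice than in any vehicle mouse, a separation that 0.885% of all genes showed and that here rests on the near tie of prednisone mouse 35 with vehicle mouse 17. These values rest on single mice: without vehicle mouse 36 Ripk3 was -0.78 (adjusted p = 0.602) and Mlkl -0.45 (0.666), both smaller by over 1.5 times. Calls over all genes in this comparison ran from 0 to 1828 as single mice were left out, so the calls of members in these refits are not particular to them. Without MMF mouse 1 all 4 genes were called, at -1.28, -0.96, -0.19 and -0.35 (adjusted p = 0.025, 0.0463, 0.0364 and 0.0335). Without vehicle mouse 7 Ripk3 (-1.55, 0.0322) and Mlkl (-1.21, 0.0395) were called, and without prednisone mouse 23 likewise Ripk3 (-1.31, 0.0244) and Mlkl (-0.99, 0.0441). Voom on the recovered reads also called Ripk1, at -0.26 (0.0451), and over all alternatives Ripk1 ran from -0.26 to -0.12.

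The Multi-target arm was then set against each single drug. No member was called, and 0% of all genes were called in each of the 3 contrasts in limma, with 1126, 61 and 503 genes at an unadjusted p under 0.05 against MMF, FK506 and prednisone, none of them a member. Against MMF the member estimates ran from -0.14 (Bid) to 0.37 (Ripk3), with intervals from -0.52 to 1.16. Against FK506 they ran from -0.15 (Fadd) to 0.35 (Mlkl), with intervals from -0.81 to 1.15. Against prednisone they ran from -0.57 (Ripk3) to 0.24 (Bid), with intervals from -1.36 to 0.59. In each contrast 1 of the 8 members did not overlap between groups, where 6.5%, 4.62% and 10.8% of all genes did not. A difference of about 1 log2 unit in Ripk3 or Mlkl between the Multi-target treatment and a single drug would thus lie inside some of these intervals.

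Treated mice were also compared with healthy mice, to see what remained apart after treatment. These contrasts share the 3 healthy mice. Fas was called higher in all 4 arms, and in the main limma fit it was the only member called on FK506 and the Multi-target treatment. The rise over healthy was 1.26 ± 0.15 on MMF (limma, adjusted p = 0.000291), 1.07 ± 0.15 on FK506 (0.000869), 1.22 ± 0.15 on prednisone (0.000138) and 1.24 ± 0.15 on the Multi-target treatment (0.00039). The highest healthy Fas value was 6.85 and the lowest treated one 7.73. In the order of group means, healthy was lowest at 6.75 and the other 5 groups, from FK506 at 7.82 to vehicle at 8.10, each overlapped their neighbour.

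In the MMF arm 2 members were called higher than healthy, Fas and Bid, where 15.9% of all genes were called (9.56% higher, 6.37% lower). Bid rose by 0.63 ± 0.16, or 1.55-fold (limma, adjusted p = 0.0224). The call of Bid did not hold without any 1 of the 3 healthy mice (adjusted p = 0.0838, 0.0647 and 0.0586 for mice 1, 2 and 3) or without MMF mouse 14 (0.0985) or 27 (0.0771), while the difference stayed at 0.56 to 0.66 in these 5 cases. Without MMF mouse 1, Fadd at -0.70 (0.00601) and Casp8 at -0.45 (0.0137) were called lower as well, while without MMF mouse 14 Fadd was -0.28 (0.428). Ripk3 on MMF was 0.24 above healthy (-0.55 to 1.04, adjusted p = 0.668), and -0.02 without MMF mouse 1. Mlkl was 0.83 above (adjusted p = 0.126), with no MMF mouse inside the healthy range.

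On prednisone 4 members remained called above healthy, Fas, Ripk1, Ripk3 and Mlkl, where 16.7% of all genes were called (13.4% higher, 3.29% lower). Ripk3 rose by 1.18 ± 0.37 (limma, adjusted p = 0.0421), Mlkl by 1.34 ± 0.37 (0.0256) and Ripk1 by 0.21 ± 0.07 (0.0437). These calls depend on the scaling: after quantile normalization they were 0.70 (0.16), 1.08 (0.052) and 0.091 (0.371), and after median centring Ripk3 was 0.98 (0.0695) and Ripk1 0.013 (0.91). Without prednisone mouse 23 the differences were 0.82 (0.196), 0.96 (0.13) and 0.21 (0.131), and without mouse 35 they were 1.37 (0.0602), 1.37 (0.0686) and 0.20 (0.144). Without 1 of healthy mice 1, 2 and 3 none of these 3 genes was called either, with adjusted p from 0.0705 to 0.153. On FK506 and the Multi-target treatment 7.27% (5.73% higher, 1.54% lower) and 6.98% (5.33% higher, 1.65% lower) of all genes were called. There Ripk3 was 0.63 (adjusted p = 0.309) and 0.61 (0.327) above healthy, and Mlkl 0.76 (0.219) and 1.11 (0.0839). With only the groups compared in the fit, limma called Ripk3 (0.0356) and Mlkl (0.00871) on FK506 and Mlkl (0.00868) on the Multi-target treatment. Array weights called both genes in both arms, with adjusted p of 0.0108 and 0.00146 on FK506 and 0.0214 and 0.000128 on the Multi-target treatment. Over all alternatives Ripk3 ran from 0.24 to 0.72 on FK506 and from 0.22 to 0.71 on the Multi-target treatment. Bid on the Multi-target treatment was 0.49 above healthy (0.0758), called without mouse 39 at 0.62 (0.0428). Groups did not overlap with healthy for 4 members on MMF, 5 on FK506, 6 on prednisone and 7 on the Multi-target treatment, against 39.9%, 46.2%, 53.1% and 46.6% of all genes.

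Ratios within a library set the transcript levels of pairs of members against each other without a scaling between libraries, and are described here without a test. In bulk cortex they do not show the balance of apoptosis and necroptosis, and the part of infiltrating cells in them was not tested. The log2 ratio of Ripk3 to Casp8, the protease that cuts Ripk3, was -5.15 ± 0.27 (SD, n = 3) in healthy and -3.36 ± 0.65 in vehicle mice, 1.79 higher. It was above the healthy mean by 0.54 on MMF, 0.82 on FK506, 1.31 on prednisone and 0.88 on the Multi-target treatment, and no mouse of vehicle, FK506, prednisone or the Multi-target treatment lay in the healthy range. The FK506 mice lay within 0.05 of each other in this ratio. The ratio of Mlkl to Ripk3 was nearly the same in healthy (1.39 ± 0.20) and vehicle mice (1.42 ± 0.07), while the single genes rose 3.69-fold and 3.75-fold. It was 1.98 ± 0.15 on MMF and 1.89 ± 0.11 on the Multi-target treatment, with every mouse of both groups above every healthy and vehicle mouse, so that on these treatments Mlkl stayed higher relative to Ripk3. On FK506 and prednisone it was 1.52 ± 0.11 and 1.55 ± 0.32. The ratio of Casp8 to Cflar was -1.17 ± 0.14 in healthy, -1.23 ± 0.24 in vehicle and -1.61 to -1.51 by mean in the treated groups. All prednisone and Multi-target mice lay below the healthy mice, the former by a narrow gap (highest -1.331 against a lowest healthy -1.328), while MMF and FK506 mice overlapped them.

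**Figure D4:**
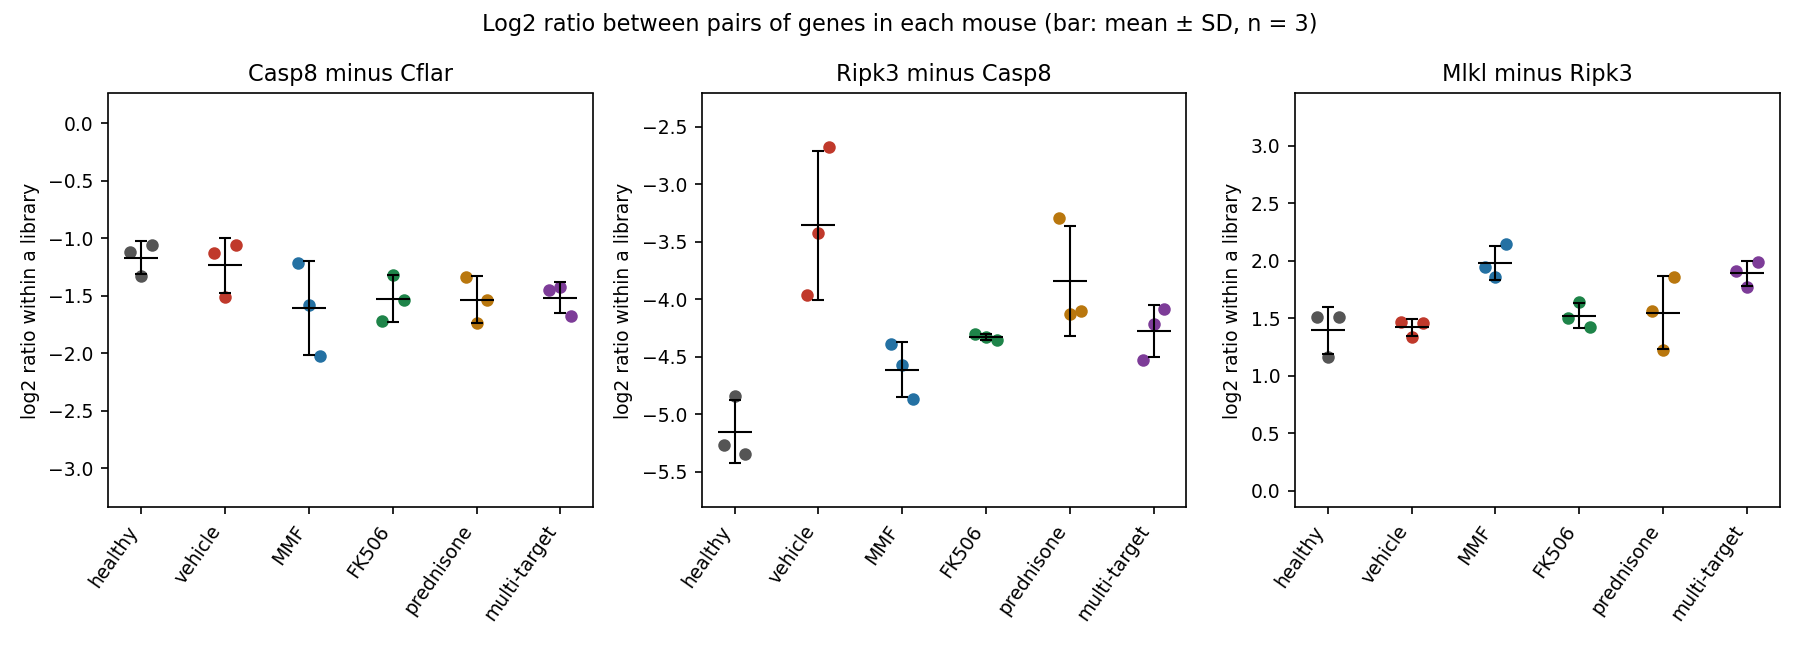
Log2 ratio of 3 gene pairs within each library (vertical axes), by group; points are mice and bars the mean ± SD (n = 3). Ripk3 relative to Casp8 is highest in vehicle mouse 36, and Mlkl relative to Ripk3 is 1.77 to 2.15 in the MMF and Multi-target mice, a range that prednisone mouse 35 at 1.85 also reaches.

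The genes whose profile over the 18 libraries was closest to a member were found by the root-mean-square difference of log2 values centred on each gene's mean. For Ripk3 they were Dapp1 (0.173), Rap2b (0.189) and Tmem173, the DNA-sensing adaptor STING (0.195). The SD of Ripk3 itself over the libraries was 0.736. For Mlkl they were Tmsb4x (0.193), Plekho1 (0.197) and Arpc1b (0.197), of which Tmsb4x and Arpc1b encode actin regulators, against an SD of 0.709. For Fas, which varied mainly between healthy and Mrl/lpr mice (SD 0.482), they were Ly6c1 (0.199), Chka (0.207) and Ska3 (0.213). For Ripk1, with an SD of 0.110, 1810030O07Rik lay at 0.061 and Ctps2 at 0.066. The nearest genes of Fadd (Scamp5), Casp8 (Man2a2), Cflar (Hnrnpm) and Bid (Hscb) lay at 0.126, 0.088, 0.079 and 0.093.

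The rest of the cell death machinery was followed in 5 lists, and the median of all genes in disease was 0.09. Of the death ligands and receptors, 9 of 10 were measured (Lta was not). In vehicle against healthy 7 (77.8%) were called higher and 1 (11.1%) lower, against 15.7% and 6.76% of all genes, with a median of 1.09. Fasl, the ligand of Fas, stood at 6.10, 6.05 and 6.25 in healthy mice and 6.77, 7.66 and 7.25 in vehicle mice 7, 17 and 36, a rise of 1.09 ± 0.24 (limma, adjusted p = 0.00553). Every vehicle mouse was above every healthy mouse, as for the receptor. The TNF receptors Tnfrsf1b (3.16, 1.48e-05) and Tnfrsf1a (1.13, 0.00252) and the TRAIL gene Tnfsf10 (1.89, 0.00102) rose as well, and the gene lower was Tnfrsf21, named because it was the only fall. Against vehicle, Fasl differed by -0.49 on MMF, -0.45 on FK506, -0.43 on prednisone and -0.63 on the Multi-target treatment, with no call (adjusted p = 0.184, 0.305, 0.943 and 0.241). It was called on MMF without MMF mouse 1, at -0.68 (0.0424). Without vehicle mouse 17 the 4 values were -0.27, -0.23, -0.21 and -0.42, without vehicle mouse 7 -0.67 on FK506 and -0.66 on prednisone, and without prednisone mouse 29 the last was -0.21.

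Among other triggers and regulators of necroptosis, 14 of 14 were measured. In disease 7 (50%) were called higher and 0 lower, against 15.7% and 6.76% of all genes, with a median of 0.37. The examples with the smallest p were Tlr3 (0.89 ± 0.15, limma adjusted p = 0.000727) and Tlr4 (1.56 ± 0.27, 0.00116), receptors that signal through the RHIM adaptor Ticam1, and Adar (1.09 ± 0.19, 0.0011), an RNA-editing enzyme. Zbp1, a nucleic acid sensor that binds Ripk3 through its own RHIM, stood at 5.45, 5.63 and 5.55 in healthy mice. In vehicle mice 7, 17 and 36 it stood at 7.83, 9.18 and 10.35, the same order of mice as Ripk3 and Mlkl, a rise of 3.58 ± 0.68 (0.00222). In MMF mice 1, 14 and 27 Zbp1 held 7.82, 6.57 and 5.63, again the order of Ripk3 there, a difference of -2.45 that was not called (adjusted p = 0.0613). It was called without MMF mouse 1 (-3.02, 0.00683) or vehicle mouse 7 (-3.09, 0.0248). On FK506, prednisone and the Multi-target treatment it differed by -2.11, -1.29 and -1.86, with adjusted p of 0.171, 0.943 and 0.233. The prednisone value was -0.68 without vehicle mouse 36, -0.69 without prednisone mouse 29 and -1.97 without prednisone mouse 23.

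Of the genes that control Ripk1 by ubiquitin chains and phosphorylation, 21 of 21 were measured. In disease 9 (42.9%) were called higher and 1 (Chuk, 4.76%) lower, against 15.7% and 6.76% of all genes, with a median of 0.28. Rnf31, Rbck1 and Sharpin, the 3 subunits of the linear ubiquitin ligase, were among those higher. Rnf31 rose by 0.68 ± 0.12 (limma, adjusted p = 0.00126), Rbck1 by 0.45 ± 0.11 (0.0083), the ligase gene Birc2 by 0.59 ± 0.11 (0.00141) and the kinase gene Mapkapk2 by 0.79 ± 0.19 (0.00874). Rbck1 was not called after median centring (0.26, 0.0691), and Mapkapk2 not without vehicle mouse 36 (0.67, 0.0504). The count of 10 called fell to 3 without vehicle mouse 36 and to 6 without healthy mouse 1.

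Executioners and the mitochondrial branch, into which Bid feeds, were called about as often as all genes: 5 of 23 measured genes (21.7%) were higher and 0 lower, against 22.4% of all genes called, with a median of 0.23 (Bcl2a1d and Hrk were not measured). Bcl2a1b, an antiapoptotic gene of blood cells with near-identical copies, rose by 4.68 ± 0.59 (limma, adjusted p = 0.000108). It was near the floor in healthy mice 1, 2 and 3, at 2.06, 3.08 and 3.77, where a single read stood at 0.06, 0.27 and 0.18. The size of this rise thus rests on few reads in healthy mice. The antiapoptotic Mcl1 (0.81, 0.0171) and the pore former Bak1 (1.29, 0.0275) were called in all mice together. Without vehicle mouse 36 they were not (0.68, 0.0907 and 0.90, 0.157), nor without healthy mouse 1 (0.72, 0.0739 and 1.29, 0.0745), and Bak1 not without healthy mouse 2 (0.073) or 3 (0.0731). The count of 5 ran from 2, without healthy mouse 1 or vehicle mouse 36, through 3, without healthy mouse 2 or 3, to 8 without vehicle mouse 7.

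Pyroptosis, the inflammasome-driven form of lytic death, gave the highest share of rises among the 5 lists. Of 14 measured genes, 12 (85.7%) were called higher and 0 lower, against 15.7% and 6.76% of all genes, with a median of 1.46 (Gsdme was found under its older symbol Dfna5). Il1b rose by 3.61 ± 0.39 (limma, adjusted p = 3.68e-05), Aim2, a DNA sensor, by 1.63 ± 0.24 (0.000377), Naip2, with near-identical relatives, by 1.65 ± 0.25 (0.000401) and Il18 by 1.39 ± 0.21 (0.000417). Many genes of these lists are expressed by leukocytes, whose markers were higher in the same mice, and the part of infiltrating cells was not tested. On MMF 4 of the 81 measured list genes (4.94%) were called, all lower, against 1.45% of all genes called lower: Tnfrsf25 (-1.27, 0.0486), Ikbke (-1.79, 0.0459), Tlr4 (-1.23, 0.0468) and Naip2 (-1.08, 0.0486). The first 2 were named after their values were seen, and none of the 4 was called without vehicle mouse 17 (0.0866 each), vehicle mouse 36 (0.217 to 0.226), MMF mouse 14 (0.158 to 0.162) or MMF mouse 27 (0.242). The death ligand list ran from 8 called to 5 without vehicle mouse 17 or 1 of the healthy mice and to 4 without vehicle mouse 36, and the necroptosis regulators from 7 to 4 without vehicle mouse 36 or healthy mouse 1 or 2.

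Against healthy mice, the calls in the lists differed between the treated groups by count, a difference that was not tested. All genes were called higher in 13.4% of cases on prednisone, 9.56% on MMF, 5.73% on FK506 and 5.33% on the Multi-target treatment. Pyroptosis genes were called higher in 10 of 14 cases on prednisone, against 3 on MMF (with 1, Dfna5, lower), 2 on FK506 and 2 on the Multi-target treatment. Necroptosis regulators were called higher in 6 of 14 cases on prednisone, Zbp1 among them, against 3, 1 and 1. Il1b and Tnfrsf1b were called higher than healthy in all 4 arms.

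**Figure D5:**
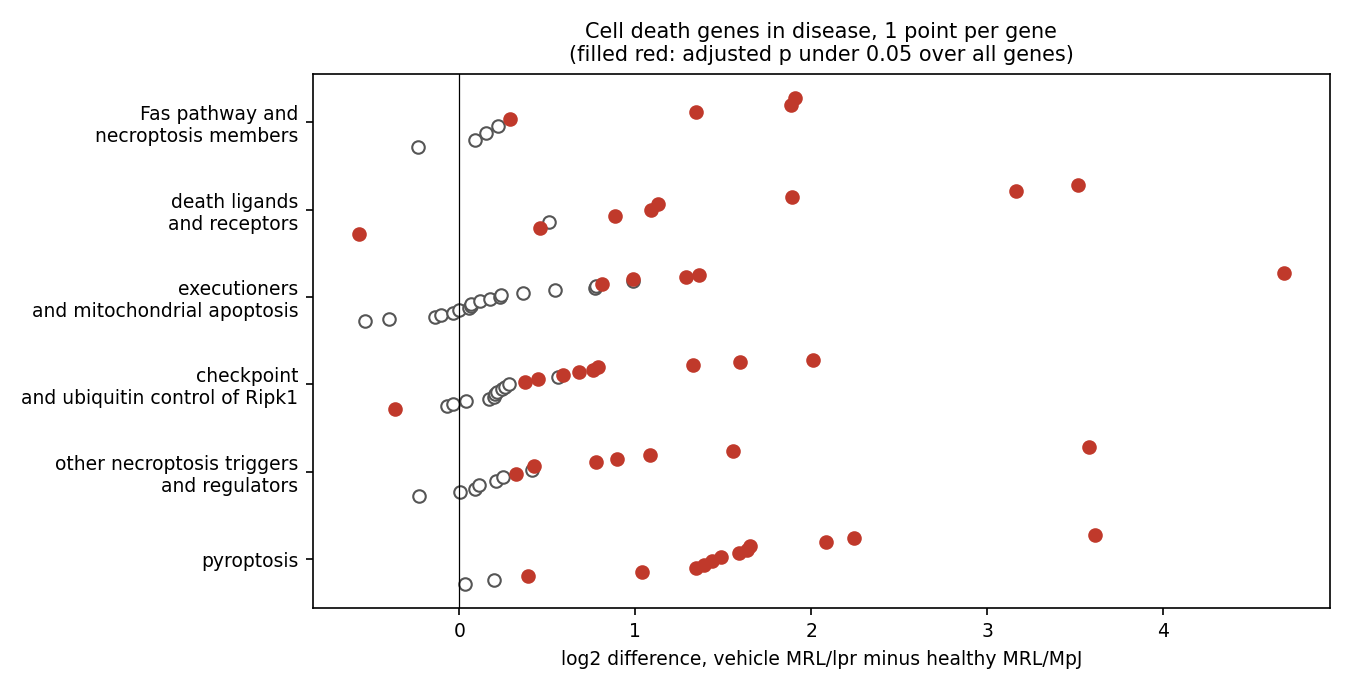
Log2 difference of vehicle Mrl/lpr minus healthy mice (horizontal axis) for the 8 genes and for the measured genes of 5 cell death lists, 1 point per gene; filled red marks an adjusted p under 0.05 over all genes. Pyroptosis shows 12 filled points of 14, executioners and mitochondrial apoptosis 5 of 23, where 22.4% of all genes were called.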

How the data were processed

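The authors deposited 1 table per library of log2 expression values for 15035 gene symbols. The submitters' processing notes name limma and mm10 without versions or roles; the read aligner is not given in the sources used here. Per the labels, frozen kidney gave 1 ug of total RNA for each library. On the linear scale, and after division by a factor found for each library, the deposited log2 values gave whole reads (tolerance 0.001 reads) in all 18 libraries for 11177 genes (74.3%). Of the other genes, 2501 had enough digits to test squares, and 1386 (55.4%) were whole on that scale, as averages of log2 values over 2 rows are. Of all values 0.164% stood for fewer than 10 reads. In 23 rows the symbol had become a date.

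The log2 values were fitted unfiltered, without a pseudocount, in limma (version 3.58.1, R 4.3.3, trend) as group means over 18 libraries (12 residual degrees of freedom). In each of 13 comparisons p-values were Benjamini-Hochberg adjusted over 15035 genes at 0.05. The fit was also run on simulated data with independent normal noise of equal spread in all groups. That run cannot show how the fit behaves where the spread differs between groups, as it does here. Intervals are 95% confidence intervals of a single difference and cover no multiple testing. Mouse numbers name replicates, and the labels do not say how mice were housed or processed. Each p-value weighs a difference against the spread between mice within groups. In the main fit that spread is pooled over all 6 groups, so each SE also reflects groups outside the comparison. Spread was unequal: the SD of Mlkl was 0.05 in healthy, 0.17 in FK506 and 0.80 in vehicle mice.

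The members and lists were chosen with earlier results of these data known. Named are the 8 members, up to 4 genes with the smallest p among those called in disease from each list, and the 3 genes nearest each member. Tnfrsf21, Chuk, Sharpin, Tnfrsf25, Ikbke and Ticam1 were named outside this rule. Results on a few further genes that the rule selects are not reported here. Coordinates are from GENCODE vM21 (GRCm38) and promoters from RefSeq. A planned look at protein sequences (RHIM motifs) was not run. Alternatives covered scaling, filter, weights, the samples fitted, voom on recovered reads and each mouse left out.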

Additional observations from a re-analysis of the deposited data

How the results depend on the processing

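Of the member differences recomputed under alternatives, 734 kept direction and side of the threshold, 41 gained and 36 lost a call, and 22 turned sign, none of them called; the causes were not tested except where stated. Leaving out the 25% of genes with the lowest mean removed Fas, Ripk3 and Mlkl from the test, which leaves 1 member called in disease instead of 4, 0 in MMF against vehicle, and 1, 0, 1 and 0 against healthy on MMF, FK506, prednisone and the Multi-target treatment. Members called in MMF against vehicle numbered 0 with only those groups fitted, after quantile normalization, after median centring and without vehicle mouse 17 and FK506 mouse 12, and 5 with array weights. Array weights also gave 5 in disease, Fadd added, 1 in Multi-target against vehicle, pooled treated against vehicle and Multi-target against MMF, and 5, 4 and 6 against healthy on MMF, FK506 and the Multi-target treatment. Calls over all 15035 genes moved as well. Apart from single mice left out, they ran from 0 to 6158 in MMF against vehicle and 0 to 5245 in Multi-target against MMF. Against healthy they ran from 1459 to 8765 on MMF, 213 to 7210 on FK506 and 623 to 7697 on the Multi-target treatment. The member counts are therefore no result about the members alone. With only the groups compared, 3 were called on FK506 and 3 on the Multi-target treatment against healthy. On prednisone against healthy, 1 was called after quantile normalization and 2 after median centring, and quantile normalization left 4 death ligand genes called instead of 8. Voom covered the 11177 whole genes with 4 of the members, so no member count was made from it; it called Ripk1 lower in MMF (-0.36) and pooled treated (-0.26) against vehicle.

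With each mouse left out in turn, members called ran from 4 to 4 in disease, 0 to 6 in MMF against vehicle, 0 to 4 in pooled treated against vehicle, and 1 to 4, 1 to 1, 1 to 4 and 1 to 2 against healthy on MMF, FK506, prednisone and the Multi-target treatment. List genes called in disease ran from 4 to 9 (death ligands), 2 to 8 (executioners), 3 to 12 (ubiquitin control), 4 to 7 (necroptosis regulators) and 10 to 11 (pyroptosis). Over all genes the calls numbered 3369 in disease (1490 to 4023 with a mouse left out, 2226 to 5037 otherwise) and 238 in MMF against vehicle (0 to 5538, 0 to 6158). With a mouse left out they ran from 0 to 1828 in pooled treated against vehicle. Against healthy they then ran from 487 to 5802 on MMF, 239 to 1162 on FK506, 1036 to 2969 on prednisone and 223 to 1293 on the Multi-target treatment. Of the genes called in disease 69.8% were higher, and 43.7% after quantile normalization.

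Signs turned as follows. In disease Casp8 was -0.024 after quantile normalization and -0.10 after median centring, with -0.0040 (without vehicle mouse 36) to 0.15 as mice were left out, and Cflar was -0.038 after median centring. On MMF against vehicle Fas was 0.14 (quantile), 0.035 (centring) and 0.012 (without vehicle mouse 17 and FK506 mouse 12), with -0.17 to 0.012 as mice were left out, and on the Multi-target treatment 0.039 (quantile). Bid on FK506 was -0.0045 with voom and -0.033 to 0.22 as mice were left out, and on prednisone -0.0091 and -0.090 to 0.16. Against healthy, Ripk1 on MMF was -0.034 (quantile) and -0.050 (centring), on FK506 -0.044 and on the Multi-target treatment -0.0059 (centring). Cflar on the Multi-target treatment was -0.036 (centring) and -0.020 to 0.20 as mice were left out, and Ripk3 on MMF was -0.0020 (array weights) and -0.021 to 0.51. No paired analysis was possible because the groups compared share fewer than 2 mouse numbers, and where healthy and treated groups share a number it only names a mouse.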
